A study of Mus musculus with 6 samples.

Results

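The fibroblast growth factor (FGF) pathway was examined in lung RNA of mice lacking Carm1, an arginine methyltransferase that acts as a transcriptional coactivator. The members were all probe sets of the array with exactly 1 gene symbol that named an FGF ligand, an FGF receptor (Fgfr1 to Fgfr4), the receptor-like Fgfrl1, the adaptors Frs2 and Frs3, a Sprouty or Spred gene, Etv4, Etv5 or Dusp6. The rule found 38 genes among the 18193 that the array names, measured by 85 of its 45101 probe sets, and no probe set for Frs2. A probe set is a group of short oligonucleotides that together give 1 signal value for a transcript, and some may match other transcripts too.

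The groups were 3 arrays of lung labelled Carm1 knockout and 3 arrays of lung labelled wild type, 1 array per labelled sample. The knockouts are labelled as embryos of day 18.5, and so is the whole study by its design text, whereas the wild-type labels say neonatal, so genotype and a possible difference in age cannot be told apart. The allele, the strain and whether samples came from separate litters are not given in the sources used here, so p-values measure the spread between these arrays, which may be technical. Whole lung was measured, so fewer cells of a type and less RNA per cell cannot be told apart.

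FGFs are secreted proteins that bind receptor tyrosine kinases together with heparan sulfate on the cell surface. The receptor passes the signal through Frs adaptors to the RAS-ERK cascade, which switches on the ETS factors Etv4 and Etv5 and, with them, inhibitors of the same cascade: the Sprouty and Spred proteins and the ERK phosphatase Dusp6. In the developing lung Fgf10 from the mesenchyme acts on Fgfr2 in the epithelium and drives branching, Fgf9 from epithelium and mesothelium acts on the mesenchyme, and Fgfr3 and Fgfr4 are together required for alveoli to form after birth.

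Probe sets of the ligands Fgf1, Fgf7 and Fgf18, the receptor Fgfr4 and the inhibitors Dusp6 and Spry4 were lower in knockout lung. They had an unadjusted p under 0.05 and knockout levels of 56.6% to 80.4% of wild type. Further tested probe sets of Fgf7, Fgfr4 and Spry4 did not pass, with knockout levels of 87.2% to 100.7%. Fgf3 was higher, and so was Fgfrl1 at 1 of its 2 probe sets. No member passed the threshold after adjustment over all probe sets. An unadjusted p under 0.05 was found at 23.4% of the tested member probe sets and 13.6% of all tested probe sets. The promoters of 4 of the genes with lower signals are shown, and those of Fgf1 and Spry4 are not, so the choice is no ranking. Shown, to be read beside their values, are the receptor gene Fgfr4, the feedback phosphatase gene Dusp6 and the ligand genes Fgf7 and Fgf18. Each is the stretch of 250 bases before the gene's start in RefSeq's annotation of GRCm38.p6, written 5′ to 3′ on the gene's strand. Capitals mark CCGGAA, a core bound by ETS factors, TGACTCA, bound by AP-1, and TGACGTCA, bound by CREB, on either strand.
Fgfr4, chr13:55152568-55152817, plus strand: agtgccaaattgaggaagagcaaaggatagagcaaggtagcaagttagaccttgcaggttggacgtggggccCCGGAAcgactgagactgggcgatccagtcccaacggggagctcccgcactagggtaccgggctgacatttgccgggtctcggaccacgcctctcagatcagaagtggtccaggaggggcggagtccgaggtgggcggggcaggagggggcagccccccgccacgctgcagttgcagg
Dusp6, chr10:99262981-99263230, plus strand: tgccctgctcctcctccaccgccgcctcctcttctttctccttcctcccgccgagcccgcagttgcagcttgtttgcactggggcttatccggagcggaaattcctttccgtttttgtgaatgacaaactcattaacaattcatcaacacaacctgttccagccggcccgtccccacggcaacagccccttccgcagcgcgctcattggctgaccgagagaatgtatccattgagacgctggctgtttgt
Fgf7, chr2:126034408-126034657, plus strand: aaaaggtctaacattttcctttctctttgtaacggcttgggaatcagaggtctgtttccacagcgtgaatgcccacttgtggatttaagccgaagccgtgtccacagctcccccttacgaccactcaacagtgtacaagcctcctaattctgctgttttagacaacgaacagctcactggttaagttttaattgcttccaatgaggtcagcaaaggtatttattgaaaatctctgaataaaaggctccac
Fgf18, chr11:33147401-33147650, minus strand: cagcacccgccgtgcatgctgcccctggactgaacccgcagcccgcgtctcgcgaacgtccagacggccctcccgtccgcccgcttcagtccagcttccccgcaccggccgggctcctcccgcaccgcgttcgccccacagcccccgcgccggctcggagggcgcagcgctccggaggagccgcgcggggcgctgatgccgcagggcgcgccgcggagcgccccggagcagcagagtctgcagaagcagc
The 4 stretches were unlike in base composition, with a GC content of 64.0% for Fgfr4, 56.4% for Dusp6, 43.6% for Fgf7 and 77.2% for Fgf18. Only the Fgfr4 stretch held one of the motifs, a single CCGGAA, and the letters of the others were not in these windows. RefSeq's table held 36 such windows for 28 member genes. CCGGAA was in 4 of them (11.1%), those of Fgf12, Fgf5, Fgfr4 and Fgfrl1, and in 12.03% of all 32851 windows. TGACTCA was in 1 member window (Fgf12), against 4.46% of all windows, and TGACGTCA in none, against 1.55%. These are matches of letters and not binding sites.

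All arrays had been scaled to 1 common trimmed mean signal of 500.0, and their log2 correlations lay between 0.937 and 0.969. Carm1 itself, at a probe set that may cross-hybridise, had signals of 395, 374 and 511 on the knockout arrays, against 814, 678 and 865 on the wild-type arrays. This put the knockouts at 54.0% of wild type (95% confidence interval 41.7% to 70.0%, adjusted p = 0.105 in limma's test). Whether that probe set falls inside the deletion was not determined here, so the value checks the labels only in part.

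RNA of other tissues differed between the arrays and has to be read beside the members. The 5 liver markers measured of 6 in the list had a summed signal of 148421, 3625 and 16577 on knockout arrays 1 to 3, against 4298, 107971 and 179 on wild-type arrays 1 to 3. The 8 skeletal muscle markers summed to 1147, 1995 and 44475 on the knockout arrays and to 1184, 4223 and 506 on the wild-type arrays, and the 8 heart muscle markers to 12547, 40091 and 16817 against 11860, 14995 and 5188. Liver transcripts were thus highest on knockout array 1 and wild-type array 2, skeletal muscle transcripts on knockout array 3 and heart muscle transcripts on knockout array 2. Bacterial control RNA had median signals of 6.94, 11.3 and 11.4 on the knockout arrays, against 609, 4.29 and 379 on wild-type arrays 1 to 3. It was thus present on wild-type arrays 1 and 3 only. The arrays without this spike-in RNA are the 3 knockout arrays and wild-type array 2 alone, which had a high liver marker signal. Spike-in RNA as a term in the model gives that same comparison. With 1 wild-type array left, no p-value or count of passing probe sets is given for it. The arrays of low liver marker signal used below are knockout arrays 2 and 3 and wild-type arrays 1 and 3. Of these only the wild-type arrays had spike-in RNA, so genotype and spike-in RNA cannot be told apart on them. Among lung cells, all 10 markers of type I cells, which line the air spaces, were lower in the knockouts, 8 of them at p under 0.05, with sums of 78132 to 99234 in knockouts and 116987 to 156234 in wild types. Of 10 endothelial markers 8 were lower, 6 of them at p under 0.05 (sums 18985 to 20610 in knockouts and 22818 to 25570 in wild types). Of 9 type II cell markers 7 were lower, 3 of them at p under 0.05, whereas 7 of 7 tested smooth muscle markers and 7 of 8 markers of ciliated and secretory airway cells were higher, 3 and 4 of them at p under 0.05. None of the markers of these lists was at a signal of 0, and 2 of the skeletal muscle markers (Myh3 and Myog) and 1 of the heart muscle markers (Nppa) were below the filter on dim probe sets.

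**Figure D1:**
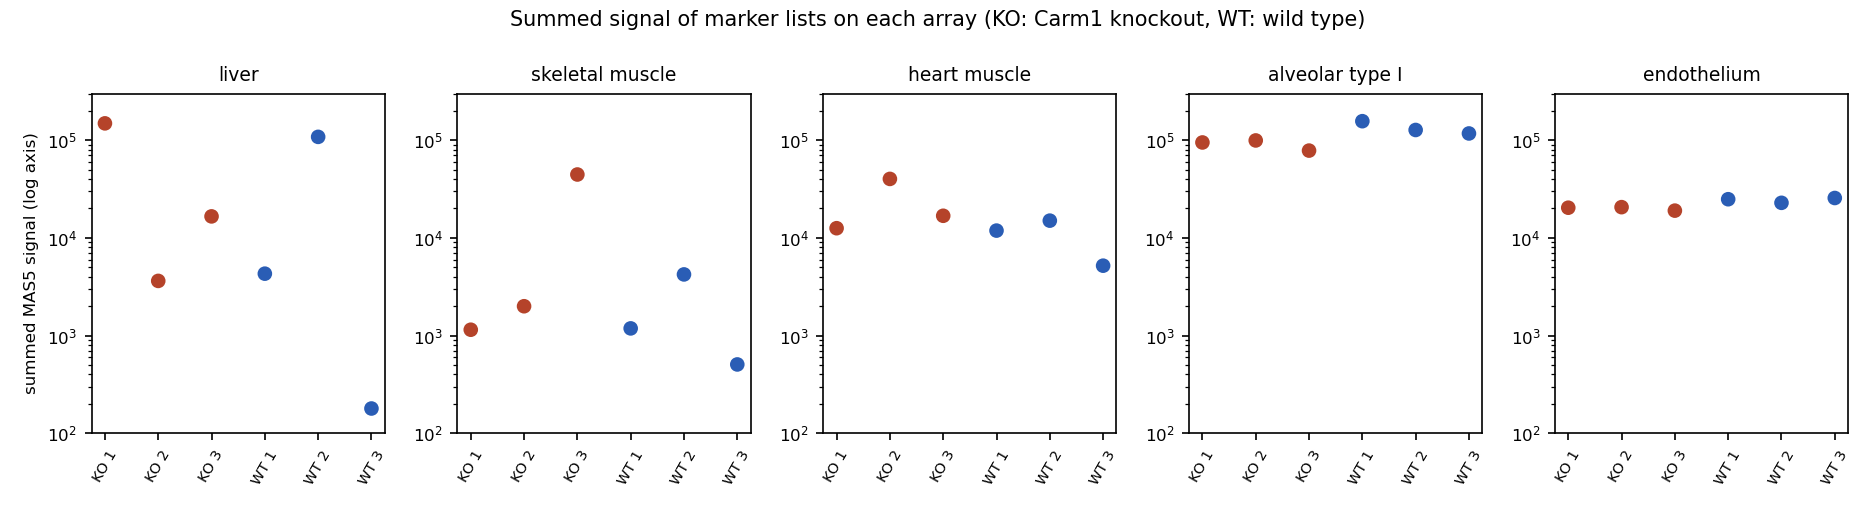
Summed MAS5 signal (log axis) of the markers of liver, skeletal muscle, heart muscle, alveolar type I cells and endothelium on each of the 3 knockout (red) and 3 wild-type (blue) arrays. Liver markers were highest on knockout array 1 (148421) and wild-type array 2 (107971), and the type I and endothelial sums of the knockouts lay below those of the wild types.

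Of the 85 member probe sets, 47 were bright enough to be tested (a mean log2 signal above the 40th percentile, which is a signal of 59.7), and these stood for 23 genes. The remaining 38 probe sets had signals between 0.259 and 122 on any array. For 15 genes no probe set was tested: the ligands Fgf2, Fgf5, Fgf6, Fgf8, Fgf15, Fgf16, Fgf17, Fgf20, Fgf21, Fgf22 and Fgf23, the intracellular Fgf14, and Etv4, Spry3 and Spred3. Fgf2, a ligand of many tissues, had means of 45.6 ± 23.8 in knockout and 24.5 ± 5.09 in wild type (SD, n = 3 each), and Etv4 stayed between 3.73 and 40.6 at both of its probe sets. No difference was tested at these signals.

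No member passed an adjusted p of 0.05 in limma's test, where 8 of 27022 probe sets did (0.0296%), 1 of them higher in knockouts (0.00370%) and 7 lower (0.0259%). At an unadjusted p under 0.05 there were 11 of the 47 tested member probe sets (23.4%), and 13.6% of all tested probe sets. Of the 11, 9 were lower in knockouts (19.1% of members, 6.31% of all) and 2 were higher (4.26% of members, 7.32% of all). In 10 member probe sets (21.3%) the knockout and wild-type arrays did not overlap, and the share over all probe sets was 20.0%. Of these, 8 were lower (17.0%, against 9.36% of all) and 2 higher (4.26%, against 10.7% of all). Over the 47 probe sets 34 were lower in knockouts (72.3%, against 47.3% of all) and 13 higher (27.7%, against 52.7% of all). With 1 probe set per gene, 15 of 23 genes were lower (65.2%). The median log2 difference, knockout minus wild type, was −0.12 over the member probe sets, −0.06 over 1 probe set per gene and 0.02 over all tested probe sets. The count of 11 became 6 without knockout array 3 (8.97% of all probe sets) and 7 without wild-type array 3 (11.2% of all). It was 11 of 85 (12.9%) when dim probe sets were tested too, where 10.1% of all passed. Adjustment for spike-in RNA leaves wild-type array 2 alone against the knockouts, so its count is not given. No exact permutation test of 3 against 3 arrays can give a p under 0.1.

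**Figure D2:**
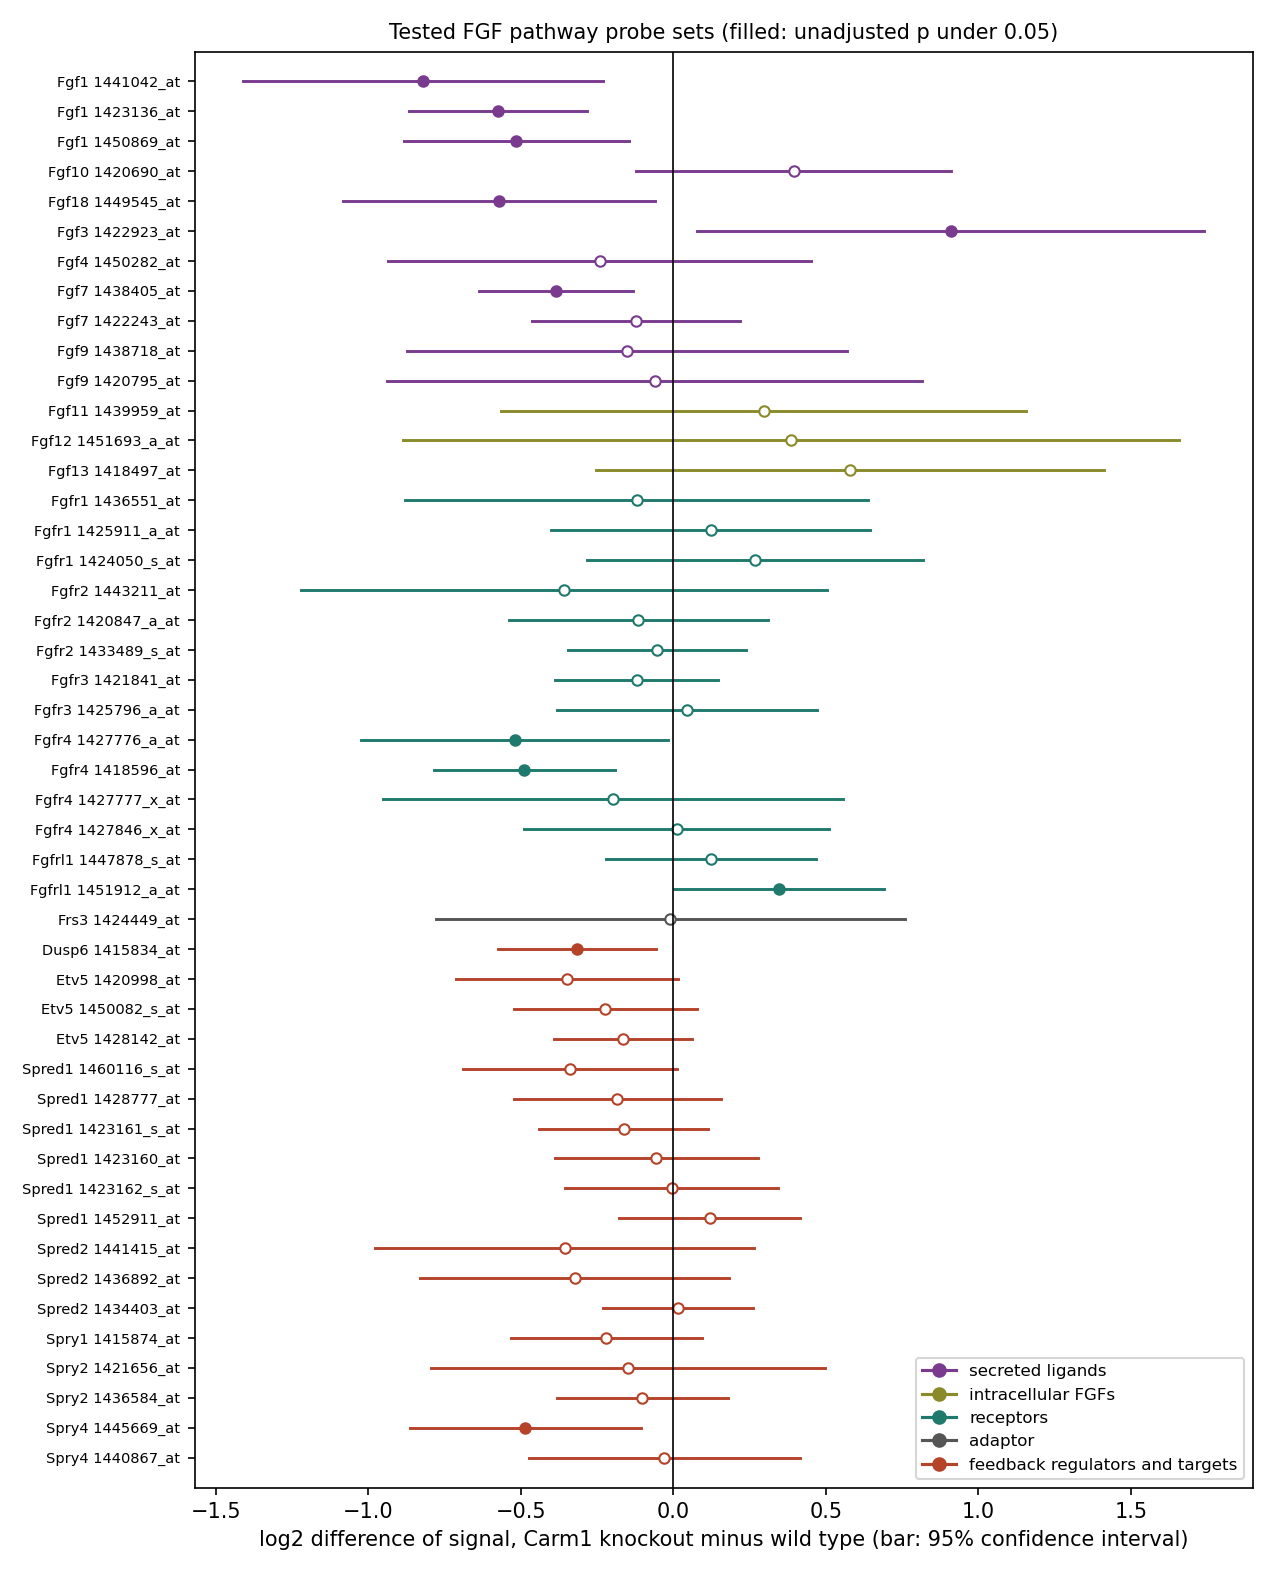
Log2 difference of signal, Carm1 knockout minus wild type, for each of the 47 tested member probe sets with its 95% confidence interval, grouped by role; filled points have an unadjusted p under 0.05. The 9 filled points left of 0 belong to Fgf1, Fgf7, Fgf18, Fgfr4, Dusp6 and Spry4, and the 2 right of 0 to Fgf3 and Fgfrl1.

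Among the secreted ligands, Fgf1, Fgf7 and Fgf18 were lower in knockout lung at p under 0.05, and Fgf3 was higher. Of the 18 secreted ligands 7 had a tested probe set, 11 probe sets in all. Of these 9 were lower (81.8%, against 47.3% of all tested probe sets) and 2 higher. The 9 included 3 probe sets of Fgf1, 2 of Fgf7 and 2 of Fgf9, so they stand for fewer genes. At a p under 0.05, 5 were lower and 1 higher (together 54.5%, against 13.6% of all). Fgf1, a ligand that binds all 4 signalling receptors, had 3 tested probe sets, all lower in knockouts. Its brightest probe set (1423136_at) had signals of 1198, 1355 and 1078 in knockouts, against 2045, 1636 and 1730 in wild types. Another (1450869_at) had 1021, 1077 and 734 in knockouts, against 1226, 1280 and 1501 in wild types. The dimmest (1441042_at) had 170, 143 and 113 in knockouts, against 334, 207 and 219 in wild types. At all 3 probe sets the genotypes were fully separated. Knockouts had 67.1%, 70.0% and 56.6% of the wild-type signal, with log2 differences of −0.58 (SE 0.13, adjusted p = 0.138), −0.51 (SE 0.16, adjusted p = 0.239) and −0.82 (SE 0.26, adjusted p = 0.241). The p stayed under 0.05 at each of the 3 with any 1 array left out. Against wild-type array 2 alone, the only wild-type array without spike-in RNA, the differences were −0.44, −0.46 and −0.57, each smaller in size. On the 4 arrays of low liver marker signal they were −0.64, −0.61 and −1.09, each with a p under 0.05. There only the wild-type arrays had spike-in RNA, so genotype and spike-in RNA cannot be told apart.

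Fgf7, the keratinocyte growth factor, is made by mesenchyme and stimulates epithelium through Fgfr2. Its brighter probe set (1438405_at) had signals of 799, 755 and 699 in knockouts, against 995, 939 and 1003 in wild types. The groups did not overlap, and the difference was −0.38 (95% confidence interval −0.64 to −0.13, adjusted p = 0.207). The p stayed under 0.05 with any 1 array left out. Against wild-type array 2 alone, the only wild-type array without spike-in RNA, the difference was −0.33. Its other probe set (1422243_at) had 443, 529 and 406 in knockouts, against 488, 467 and 540 in wild types, where the groups overlapped and the difference was −0.12 (−0.46 to 0.22). The lower Fgf7 signal thus rests on 1 of its 2 probe sets.

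Fgf18, a ligand made by the mesenchyme of the late fetal lung, had signals of 167, 212 and 158 in knockouts, against 336, 241 and 228 in wild types. The genotypes did not overlap, and wild-type array 1 was well above the rest. The difference was −0.57 (SE 0.23, adjusted p = 0.321). It no longer had a p under 0.05 without knockout array 1 (−0.53), knockout array 3 (−0.49) or wild-type array 1 (−0.40). On the arrays of low liver marker signal (−0.60) it had none either. Against wild-type array 2 alone the difference was −0.44. Fgf3, a ligand of the same subfamily as Fgf7 and Fgf10, was dim, at 73.3, 111 and 102 in knockouts, against 69.4, 41.7 and 43.3 in wild types. Knockout array 1 was close to wild-type array 1, and the other 4 arrays were well apart. The difference was 0.91 (0.08 to 1.74, adjusted p = 0.330), it lost the p under 0.05 without knockout array 2 or 3 (0.79 and 0.85) or wild-type array 2 or 3 (0.78 and 0.81), and 2 further probe sets of Fgf3 were too dim to test.

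Fgf10, the branching ligand, was higher in knockouts with an overlap. Its signals were 193, 167 and 193 in knockouts, against 172, 120 and 133 in wild types, so that knockout array 2 lay below wild-type array 1. The difference was 0.39 with a 95% confidence interval from −0.12 to 0.91 (adjusted p = 0.492). On the arrays of low liver marker signal it was 0.25, with no p under 0.05, and against wild-type array 2 alone 0.62. It had a p under 0.05 without wild-type array 1 (0.54). Fgf9, the ligand of epithelium and mesothelium, had 75.7, 215 and 132 in knockouts, against 138, 106 and 167 in wild types at its brighter probe set. Knockout arrays 1 and 2 were the lowest and the highest of the 6, and the difference of −0.06 had an interval from −0.94 to 0.82. At the other probe set of Fgf9 the difference was −0.15 (−0.87 to 0.57). The summed signal of the 8 mesothelial markers was 13303 to 16432 in knockouts and 16751 to 17765 in wild types. Of these markers 6 were lower and 2 higher, with 2 of the lower ones at p under 0.05. Their mean log2 signal per array overlapped between the genotypes. Fgf4 was near the filter, at 98.0, 75.5 and 74.3 in knockouts, against 76.6, 117 and 102 in wild types, and did not pass (difference −0.24, −0.94 to 0.45). The type I and endothelial marker sums were lower on the same knockout arrays as Fgf1, Fgf7 and Fgf18. So was the sum of 10 markers of lung fibroblasts, at 51844 to 56718 in knockouts and 60116 to 66317 in wild types. Taken singly, however, these fibroblast markers were evenly split. In knockouts 5 were lower, 3 of them at p under 0.05, while 5 were higher, 1 of them at p under 0.05. The median of the 10 differences was −0.07, and the genotypes overlapped in the mean log2 signal of these markers per array. The part of type I, endothelial and fibroblast cells in the differences was not tested.

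**Figure D3:**
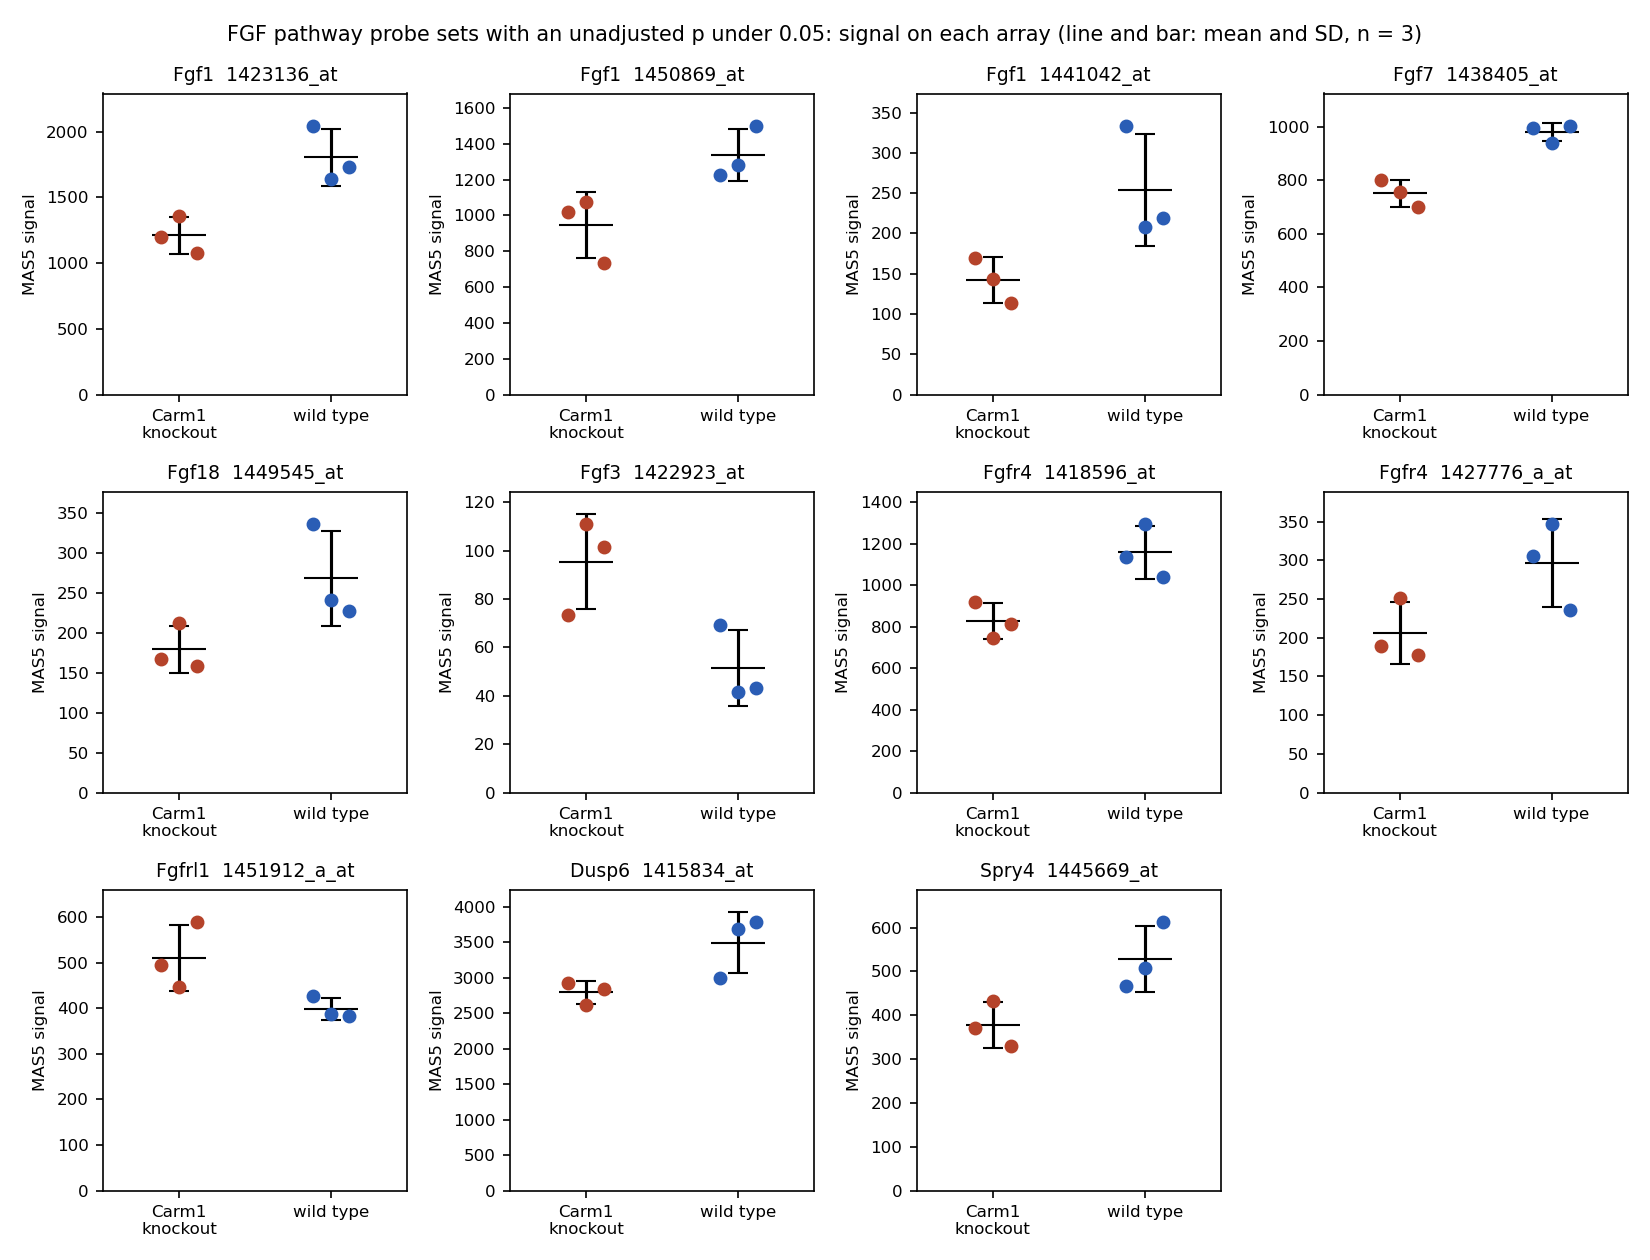
MAS5 signal of the 11 member probe sets with an unadjusted p under 0.05 on each of the 3 knockout (red, left) and 3 wild-type (blue, right) arrays, with the mean and SD (n = 3). The arrays of the 2 genotypes do not overlap in 10 of the panels and overlap at the second Fgfr4 probe set (1427776_a_at).

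The FGFs that stay inside the cell, which bind voltage-gated sodium channels and do not act on FGF receptors, were higher in knockout at all 3 tested probe sets, none of them with a p under 0.05 over the 6 arrays. Fgf12 had 79.8, 249 and 45.2 in knockouts, against 73.8, 81.2 and 67.0 in wild types. Only knockout array 2, which had the highest heart muscle marker signal, stood out, and without it the difference of 0.39 became −0.30. Fgf13 had 115, 159 and 278 in knockouts, against 117, 154 and 84.6 in wild types, with knockout array 3, the array of high skeletal muscle signal, highest (difference 0.58, −0.25 to 1.41). The Fgf13 difference was 0.23 without knockout array 3 and 0.16 on the arrays without spike-in RNA. It had a p under 0.05 without knockout array 1 (0.87) and on the arrays of low liver marker signal (1.08). Fgf11 had 135, 104 and 106 in knockouts, against 91.3, 154 and 57.2 in wild types (difference 0.30, −0.57 to 1.16). The part of muscle RNA in the Fgf12 and Fgf13 values was not tested.

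Among the receptors, Fgfr4 was lower in knockouts and Fgfr1, Fgfr2 and Fgfr3 had no probe set with a p under 0.05 over the 6 arrays. The brightest Fgfr4 probe set (1418596_at) had signals of 919, 747 and 812 in knockouts, against 1139, 1297 and 1042 in wild types, without overlap. Knockouts had 71.3% of the wild-type signal (log2 difference −0.49, SE 0.13, adjusted p = 0.182), and the p stayed under 0.05 with any 1 array left out. Fgfr4 is also a liver gene, the receptor for the endocrine Fgf15 on hepatocytes, and the highest array of each genotype, knockout array 1 and wild-type array 2, was the one with the highest liver marker signal. On the 4 arrays of low liver marker signal the difference was −0.48, with a p under 0.05, but there only the wild-type arrays had spike-in RNA. Against wild-type array 2 alone, the wild-type array of high liver marker signal, it was −0.66.

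The other probe sets of Fgfr4 did not all follow. A second one (1427776_a_at) had 189, 252 and 178 in knockouts, against 306, 347 and 235 in wild types, with an overlap between knockout array 2 and wild-type array 3 (difference −0.52, adjusted p = 0.353). With 1 array left out its p stayed under 0.05 in 2 of 6 cases, and the difference lay between −0.68 and −0.40. On the arrays of low liver marker signal it was −0.34, with no p under 0.05, and against wild-type array 2 alone −0.77. For 1427777_x_at the difference was −0.20 (−0.95 to 0.56) and for 1427846_x_at it was 0.01 (−0.49 to 0.51), and probe sets with this suffix hold probes that may match other transcripts. The last of the 5 Fgfr4 probe sets was too dim to test.

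Fgfr2, the epithelial receptor of Fgf7 and Fgf10, had 3354, 3874 and 2985 in knockouts, against 3430, 3154 and 4007 in wild types at its brightest probe set. The groups overlapped throughout, and the difference of −0.05 had an interval from −0.35 to 0.24. Its other probe sets differed by −0.11 (−0.54 to 0.31) and −0.36 (−1.22 to 0.50). Fgfr3, which acts with Fgfr4 in alveolus formation, had 2386, 2726 and 3097 in knockouts, against 2759, 2929 and 3201 in wild types (difference −0.12, −0.39 to 0.15), and its second probe set differed by 0.04 (−0.38 to 0.47). Fgfr1, a receptor of lung mesenchyme, had 355, 467 and 658 in knockouts, against 392, 489 and 327 in wild types (difference 0.27, −0.28 to 0.82). That difference was 0.036 without knockout array 3, −0.034 on the arrays without spike-in RNA and 0.63, with a p under 0.05, on the arrays of low liver marker signal. Knockout array 3, with its high skeletal muscle signal, was the highest of the 6 arrays at all 3 Fgfr1 probe sets, and the part of muscle RNA was not tested. The other 2 probe sets differed by 0.12 (−0.40 to 0.65) and −0.12 (−0.88 to 0.64).

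Fgfrl1, a receptor-like protein that binds FGFs and has no tyrosine kinase domain, was higher in knockouts at 1 of 2 probe sets. At 1451912_a_at its signals were 494, 447 and 590 in knockouts, against 426, 387 and 383 in wild types. The groups did not overlap and the difference was 0.35 (SE 0.15, adjusted p = 0.364). It had no p under 0.05 without knockout array 1 or 3 (0.37 and 0.24) or wild-type array 2 or 3 (0.33 and 0.32). On the arrays of low liver marker signal (0.35) it had none either. Against wild-type array 2 alone the difference was 0.39. At the brighter probe set (1447878_s_at) they were 961, 969 and 1349 in knockouts, against 1030, 1037 and 908 in wild types, where only knockout array 3 lay above the wild types and the difference was 0.12 (−0.22 to 0.47). The adaptor Frs3, which links the receptors to the RAS cascade, had 215, 165 and 107 in knockouts, against 181, 107 and 200 in wild types, with a difference of −0.01 (−0.78 to 0.76).

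The feedback regulators and targets were mostly lower by small amounts. Of 18 tested probe sets of 7 genes, 16 were lower (88.9%, against 47.3% of all probe sets) and 2 higher, with a median of −0.17. The 18 included 6 probe sets of Spred1, 3 of Etv5 and 3 of Spred2, so the share leans on repeat measures of few genes. At a p under 0.05 there were 2 (11.1%, against 13.6% of all), those of Dusp6 and Spry4. On the arrays without spike-in RNA 14 of the 18 were lower. The lower type I and endothelial marker sums of the knockouts stand beside these values too, and their part was not tested. Dusp6, the phosphatase that inactivates ERK and is itself switched on by ERK signalling, had signals of 2926, 2614 and 2841 in knockouts, against 2999, 3685 and 3790 in wild types. The groups did not overlap, with wild-type array 1 close to the knockouts, and the difference was −0.32 (SE 0.11, adjusted p = 0.288). It had no p under 0.05 without knockout array 2 (−0.27) or without wild-type array 2 or 3 (−0.27 and −0.25). Against wild-type array 2 alone it was −0.40, and on the arrays of low liver marker signal −0.31, with no p under 0.05.

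Etv5, an ETS factor and a readout of FGF signalling in the distal lung epithelium, did not pass at any of its 3 probe sets in the main test. At the brightest it had 2700, 2590 and 2628 in knockouts, against 2653, 3114 and 3138 in wild types, so that wild-type array 1 lay among the knockouts (difference −0.17, −0.39 to 0.06). With 1 array left out, its p there was under 0.05 in 1 case. The other Etv5 probe sets differed by −0.22 (−0.52 to 0.08) and −0.35 (−0.71 to 0.01). At the last of these (1420998_at) the p was under 0.05 in 6 of 18 alternatives, among them the arrays of low liver marker signal (−0.48).

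Spry4, of the Sprouty family of receptor signalling inhibitors, gave unlike results at its 2 tested probe sets. At 1445669_at it had 370.0, 433 and 330 in knockouts, against 467, 507 and 613 in wild types, without overlap (difference −0.49, SE 0.17, adjusted p = 0.271). That p was no longer under 0.05 on the arrays of low liver marker signal (−0.50), nor without knockout array 3 (−0.39) or wild-type array 3 (−0.37). Against wild-type array 2 alone the difference was −0.43. At 1440867_at it had 361, 372 and 407 in knockouts, against 291, 444 and 449 in wild types, with the knockouts inside the wild-type range (difference −0.03, −0.47 to 0.42). Spry1 had 1804, 1890 and 1859 in knockouts, against 2652, 1822 and 2070 in wild types, where wild-type array 1 alone was far above the knockouts (difference −0.22, −0.53 to 0.09). With 1 array left out, the Spry1 p was under 0.05 in 1 case. Spry2, the Sprouty gene best known from lung branching, had 1568, 1558 and 1292 in knockouts, against 1648, 1400 and 1693 in wild types, with full overlap (difference −0.10, −0.38 to 0.18). Its dim second probe set differed by −0.15 (−0.79 to 0.50).

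The Spred proteins restrain activation of RAF. Spred1 had 6 tested probe sets, 5 lower and 1 higher, with differences between −0.34 and 0.12 and none past p 0.05 in the main test. The lowest, at 1460116_s_at, had a p under 0.05 after quantile normalization (−0.36) and with the replicate block. With 1 array left out, it had a p under 0.05 in 1 case, and so had 1423161_s_at. At the brightest Spred1 probe set the signals were 1869, 1339 and 1540 in knockouts, against 1416, 1749 and 1745 in wild types, with both extremes among the knockouts. Spred2 had 881, 916 and 982 in knockouts, against 963, 919 and 868 in wild types at its brightest probe set (difference 0.02, −0.23 to 0.26), and −0.32 and −0.36 at the 2 dimmer ones. Of the 13 member genes with several tested probe sets, 7 were lower at every probe set, 1 was higher at every one and 5 were mixed.

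**Figure D4:**
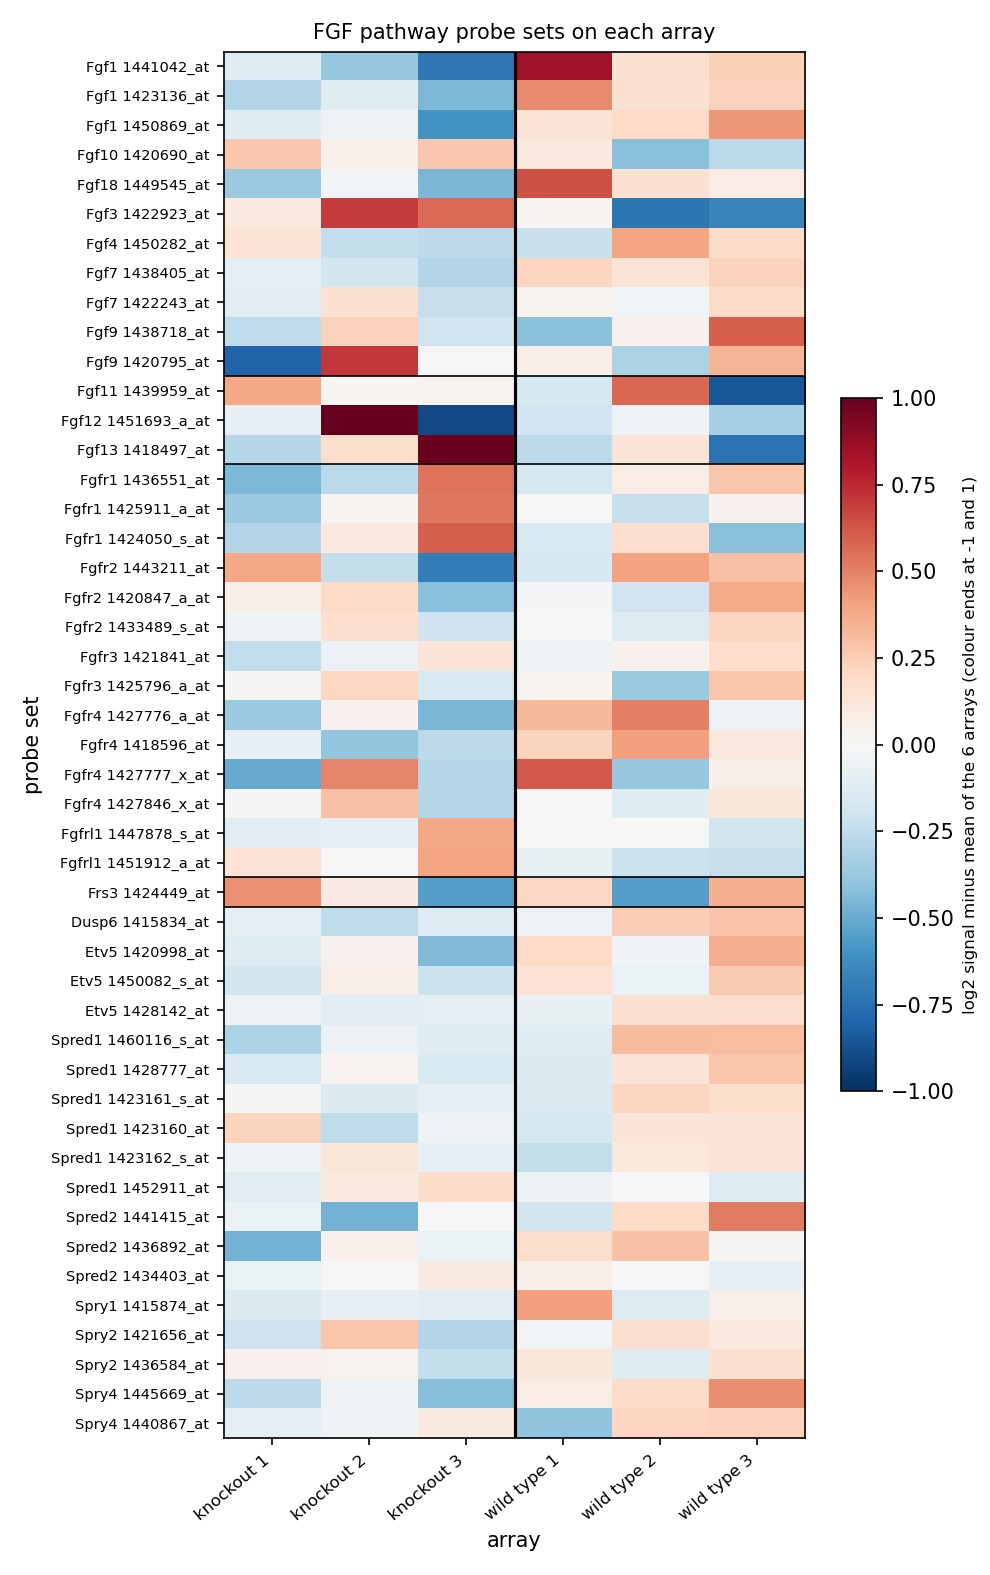
Log2 signal of the 47 tested member probe sets on each array minus the mean of the 6 arrays (colour), knockout arrays left and wild-type arrays right, with rows grouped into secreted ligands, intracellular FGFs, receptors, the adaptor and feedback regulators. The rows of Fgf1, Fgf7 (1438405_at) and Fgf18 are below their mean on the knockout arrays, and the Fgf12 row is highest on knockout array 2 and the Fgf13 and Fgfr1 rows on knockout array 3.

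Further genes of the pathway were taken from 4 lists of 83 tested genes. None passed an adjusted p of 0.05, and 20 had an unadjusted p under 0.05 (24.1%, against 13.6% of all tested probe sets), 13 of them lower and 7 higher. The 2 shares are not alike, because each list gene counts by its brightest tested probe set. With the filter raised to the 60th percentile, 16.7% of all probe sets passed. Among receptor partners and heparan sulfate enzymes, with 19 of 23 tested, 7 were lower and 12 higher, of which 2 and 3 had a p under 0.05. Flrt3, a membrane protein that binds FGF receptors, had 647, 759 and 521 in knockouts, against 1167, 1607 and 1136 in wild types, without overlap (2.03-fold lower, adjusted p = 0.0955). Hs6st2, an enzyme that adds 6-O-sulfate to heparan sulfate, had 506, 443 and 669 in knockouts, against 209, 314 and 341 in wild types (1.89-fold higher, adjusted p = 0.165). The glypican Gpc3 was 1.25-fold higher (adjusted p = 0.253).

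Among RAS-ERK, PLC and PI3K transducers, with 20 of 26 tested, 14 were lower and 6 higher, of which 3 and 1 had a p under 0.05. Pik3r1, a regulatory subunit of PI3K, had 1281, 1670 and 1398 in knockouts, against 2232, 1964 and 2308 in wild types (log2 difference −0.59, adjusted p = 0.135). Map2k2, an ERK kinase, was 1.28-fold higher (adjusted p = 0.296) and Rasa1, which switches RAS off, 1.17-fold lower (adjusted p = 0.353). The median over this list was −0.08.

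Of ERK-responsive genes outside the members, with 21 of 23 tested, 11 were lower and 10 higher, and at a p under 0.05 there were 4, all lower. Fos, the immediate early gene, had 500, 662 and 573 in knockouts, against 930, 920 and 769 in wild types, without overlap (1.51-fold lower, adjusted p = 0.160). Dusp1, a phosphatase of the same family as Dusp6, was 1.38-fold lower (adjusted p = 0.265) and Errfi1, a feedback inhibitor of the EGF receptor, 1.34-fold lower (adjusted p = 0.279). The median over this list was −0.05.

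Of the signals around Fgf10 in branching, with 23 of 26 tested, 11 were lower and 12 higher, of which 4 and 3 had a p under 0.05, and the median was 0.01. Shh, the epithelial signal that holds Fgf10 expression down in the mesenchyme, had 5147, 4933 and 4366 in knockouts, against 6915, 6390 and 6711 in wild types. The genotypes did not overlap (1.39-fold lower, log2 difference −0.47, adjusted p = 0.129). Hhip, an inhibitor and target of hedgehog signalling, had 1382, 1460 and 986 in knockouts, against 2439, 2842 and 3219 in wild types (2.24-fold lower, adjusted p = 0.0852). Sox2, a factor of the proximal airway, had 960, 1008 and 1406 in knockouts, against 778, 687 and 501 in wild types (1.72-fold higher, adjusted p = 0.172). With 1 array left out, 14 to 22 of the 83 pathway genes had a p under 0.05.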

How the data were processed

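Total RNA of mouse lung was hybridised to Affymetrix Mouse Genome 430 2.0 arrays, per the labels' protocols. The deposited values are signal intensity values on a linear scale, made by the authors with MAS5, per the submitters' processing notes. Their mean after trimming 2% at each end was 500.0 on every array. The version and detection calls are not given in the sources used here. Precision is limited by having 3 arrays per genotype.

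After 64 control probe sets were left out, log2 signals of the 27022 probe sets above the 40th percentile were tested with limma 3.58.1 in R 4.3.3 (a two-sided moderated test of knockout minus wild type, variance trend on signal), with no pseudocount and Benjamini-Hochberg adjustment over all of them. The script was tested on simulated data. Means carry the SD over 3 arrays, and folds are ratios of geometric means. Symbols came from the platform annotation, and all 85 member symbols were unchanged in RefSeq's table. A gene is represented by its tested probe set of highest mean. Named genes outside the members are the 3 of smallest p in each pathway list. Marker sums add the signal of 1 probe set per gene.

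The members and lists were chosen with earlier results of these data known. Alternatives were other scalings, filters, an offset of 32 before log2, other variance models and the replicate number as a block. Further ones were sex or spike-in RNA as a term, subsets of arrays, and leaving out each array. Sex was inferred from the signal of Y-linked genes against Xist, by which only knockout array 2 and wild-type array 3 were male. Same-numbered arrays of the 2 genotypes deviated from their group means with correlations of −0.14, −0.38 and −0.01, so the numbers were not taken to pair the samples.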

Additional observations from a re-analysis of the deposited data

How the results depend on the processing

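No member passed an adjusted p of 0.05 in limma's test under any of the 18 alternatives, and at an unadjusted p under 0.05 there were 11 as reported. The arrays of low liver marker signal were an alternative chosen after seeing the data, and among them only the wild types had spike-in RNA. On these 4 arrays the count at that p was 8 (11.4% of all probe sets). It was 6 to 13 with 1 array left out (8.97% to 12.9% of all). Spike-in RNA as a term and the arrays without it both leave wild-type array 2 alone against the knockouts, so their counts are not given. It was 9 with the replicate block (11.3% of all), in which same-numbered arrays share a block although their deviations do not pair them. The 8 adjusted calls over all probe sets were 0 with that block and without the intensity trend. They were also 0 without knockout array 2 or 3 or wild-type array 1 or 3. There were 4 with sex as a term, 2 without wild-type array 2 and 13 without knockout array 1. With robust variances there were 40, and on the arrays of low liver signal 58. With fewer arrays more groups do not overlap by construction: 23 member probe sets on the arrays without spike-in RNA (48.9%, against 56.1% of all), 22 on those of low liver signal (46.8%, against 42.4% of all) and 12 to 19 with 1 array left out (27.7% to 32.9% of all), against 10. The median over member genes, −0.06, was −0.093 after quantile normalization, −0.12 after median centring, −0.17 with the filter at the 60th percentile (fewer genes tested), −0.034 with spike-in RNA as a term or on the arrays without it, −0.13 on the arrays of low liver signal and −0.15 to −0.043 with 1 array left out. The count of pathway list genes, 20, was 14 to 22 with 1 array left out. Where not stated, the cause was not tested.

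Of the 47 member probe sets 27 kept their sign under all alternatives, among them each of the 11 with a p under 0.05. The filters, the variance models, the replicate block and sex as a term could not change a sign, because they leave the log2 difference as it is. Spike-in RNA as a term and the arrays without it were 1 comparison. The other 20 changed sign, none of them called. With spike-in RNA as a term, and likewise on the arrays without it, the differences were −0.43 for Fgf11, 0.29 for Fgf9 (1420795_at), −0.034 for Fgfr1 (1424050_s_at), 0.10 and 0.13 for Fgfr2 (1433489_s_at and 1420847_a_at), 0.28 for Fgfr4 (1427777_x_at), 0.54 for Frs3, 0.022 for Spry1 and 0.067 for Spry2 (1436584_at). On the arrays of low liver signal they were 0.15 for Fgf9 (1420795_at), 0.084 for Fgfr1 (1436551_at), −0.12 for Fgfr3 (1425796_a_at), −0.052 for Fgfr4 (1427846_x_at), 0.067 for Spred1 (1423162_s_at) and 0.11 for Spry4 (1440867_at). Median centring gave −0.016 for Fgfr3 (1425796_a_at), −0.048 for Fgfr4 (1427846_x_at) and −0.044 for Spred2 (1434403_at), and quantile normalization −0.040 for that Fgfr4 probe set. With 1 array left out the ranges were −0.054 to 0.66 for Fgf11, −0.30 to 0.93 for Fgf12, −0.43 to 0.32 and −0.40 to 0.11 for Fgf9, −0.11 to 0.34 and −0.42 to 0.075 for Fgfr1 (1425911_a_at and 1436551_at), −0.15 to 0.041 and −0.24 to 0.067 for Fgfr2, −0.13 to 0.19 for Fgfr3, −0.49 to 0.059 and −0.13 to 0.16 for Fgfr4, −0.037 to 0.21 for Fgfrl1 (1447878_s_at), −0.29 to 0.26 for Frs3, −0.18 to 0.059 and −0.13 to 0.062 for Spred1, −0.028 to 0.051 for Spred2 and −0.24 to 0.078 for Spry4 (1440867_at).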

Other observations

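In RefSeq's gene order Spry4 and Fgf1, members with lower signals in knockouts, lie on chromosome 18 with Arhgap26 and Gm19774 between them, Ndfip1 before Spry4 and Nr3c1, the glucocorticoid receptor gene, beyond Fgf1. Arhgap26 differed by −0.15 (SE 0.23, adjusted p = 0.820) at its 1 tested probe set. The 3 probe sets of Ndfip1, an adaptor of ubiquitin ligases, differed by −0.14, −0.10 and −0.06, and the 5 tested ones of Nr3c1 by −0.16 to −0.05, with none of these 9 probe sets at p under 0.05. Fgf2 and Spry1 are neighbours on chromosome 3 in the same way, with Nudt6 and Spata5 between them. There Fgf2 was too dim to test, and the tested probe sets of Nudt6 and Spata5 differed by −0.35 to 0.27, none at p under 0.05. Cetn4, before Fgf2 in that order, differed by 0.49 at its tested probe set (SE 0.18, adjusted p = 0.293), which had an unadjusted p under 0.05, and Bbs12, between Cetn4 and Fgf2, by 0.06. Beyond Spry1, Gm5148 differed by −0.61 and Ankrd50 by 0.08, neither at p under 0.05. These neighbours were looked up after the member values were seen.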
